A study of Homo sapiens with 4 samples.

Results

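The RNA contacts of SAF-A (scaffold attachment factor A, also named hnRNP U) were profiled in HCT116 cells, an established human colorectal carcinoma line, by CLIP-seq, a method in which protein is crosslinked to RNA by ultraviolet light and recovered with an antibody. The 4 libraries were 2 inputs and 2 pull-downs made with a mouse monoclonal SAF-A antibody. All 4 came from crosslinked lysate treated with DNase and a trace of RNase A, and for each the RNA was taken from membrane at the size of SAF-A and a little above. Lysate was divided between input and pull-down, and dephosphorylation and phosphorylation of the RNA ends are described for the beads of the pull-down. Libraries without crosslinking, antibody or SAF-A were not analysed here. The sites described here are the narrow ones that both pull-downs listed and neither input did. Peaks of each pull-down that shared at least 1 base with a peak of the other on the same strand were merged, merged sites touching a same-strand peak of either input were removed, and those of at most 20 bases were kept. This left 22213 narrow input-free sites, 35.3% of the 62968 sites found in both pull-downs and 61.9% of the 35889 that overlapped no input peak. The sites were chosen by presence in the pull-down lists, absence from the input lists and width, so none of these is a finding about them and no pull-down to input difference was tested.

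SAF-A is an abundant nuclear protein with a DNA-binding SAP domain at one end and an RGG-rich RNA-binding region at the other. It is known for holding nuclear RNA, including long noncoding and intronic RNA, on chromatin, and for binding RNA broadly. In a CLIP experiment a narrow peak marks a short stretch of piled-up reads and a wide peak a longer covered stretch, and RNA of the size-matched input gives the background against which either is read.

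The input lists held 29386 and 42256 peaks (replicates 1 and 2) and the pull-down lists 96061 and 111256, and read depth is unknown. Peaks of 20 bases or less made up 65.5% and 58.5% of the inputs and 68.3% and 63.9% of the pull-downs. Between the pull-downs 250 peaks agreed in position, strand and score, 0.260% of the list of replicate 1, so the lists were not copies of each other. Positions are given 1-based with both ends included, so each start is 1 base above the start in the deposited list. They were taken as GRCh37, because 1214 of the 278492 nuclear peaks end past a GRCh38 chromosome end and 0 past a GRCh37 end. The strand is the one deposited, and whether it is the strand of the RNA was not stated. Nuclear sites were not assigned to genes or sequences, since the gene table used here is on GRCh38.

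For comparison, sites found in both pull-downs were divided by width into narrow (20 bases or less), middle (21 to 49) and wide (50 or more), each with or without an input peak. There were 15714 narrow sites with an input peak, 5921 middle input-free sites and 7755 wide input-free sites. Intervals in brackets are 95% Wilson intervals. They cover counting error only and are too short where neighbouring sites share a locus.

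Most narrow input-free sites were 9 to 14 bases wide. Sites of these widths numbered 14103, or 63.5% of the narrow ones, with 12 bases the most frequent width (2821 sites) and a median of 13. Only 5.32% were under 9 bases, and 6 sites were 2 bases wide. The number of sites fell steadily above 12 bases and did not break at the limit, with 942 sites of 19 bases, 795 of 20, 658 of 21 and 503 of 22. Just inside and just outside the limit the scores were alike, with medians of 19 and 20 (pull-down replicates 1 and 2) at 20 bases and of 19 and 21 at 21 bases. Each site was made of 1 peak from each pull-down, apart from 3 sites that took more than 1 peak from replicate 2.

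**Figure D1:**
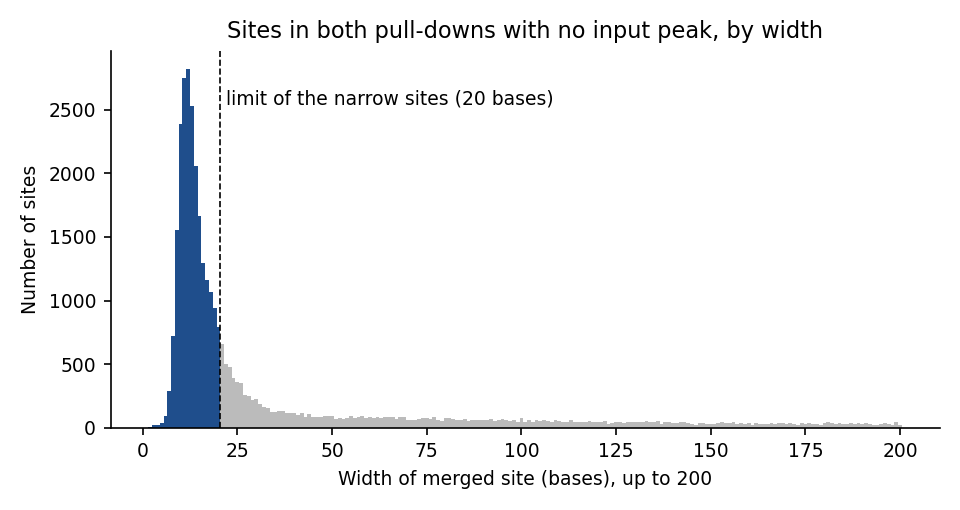
Number of input-free sites found in both pull-downs at each merged width, with widths up to 200 bases shown and 188 wider sites left out. The blue bars are the 22213 sites of 20 bases or less, which peak at 12 bases (2821 sites), and the grey bars run on without a break from 658 sites at 21 bases.

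Within these sites, the 3′ border matched between the pull-downs far more often than the 5′ border. The peaks of the pull-downs, each of median width 11, shared a median of 9 bases, which the limit of 20 bases on the merged site in large part fixes. Read along the deposited strand, the 3′ border was the same base in both pull-downs at 11304 sites, or 50.9%, and the 5′ border at 4078 sites, or 18.4%. The median shift was 0 bases at the 3′ border and 2 bases at the 5′ border. At 41.7% of sites the 3′ border was identical while the 5′ border differed, and the opposite pattern occurred at 9.13%. Both borders were identical at 2050 sites (9.23%, 8.86 to 9.62) and both differed at 40.0%.

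The excess of shared 3′ borders was of the same size on either strand, so it followed the strand and not the direction of the coordinates. On the plus strand 51.7% of sites shared the 3′ border and 18.2% the 5′ border, and on the minus strand 50.1% and 18.5%. The differing borders were divided between the replicates. The 5′ border lay further upstream in replicate 2 at 43.0% of sites and in replicate 1 at 38.6%, and the 3′ border further downstream at 24.7% and 24.4%.

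The difference between the borders depended on the width. A merged site spans both peaks, so unlike borders widen it, and part of the fall of both shares with width is built in. At 2 to 8 bases the 3′ border was shared at 64.6% (61.8 to 67.3) and the 5′ border at 48.3% (45.4 to 51.1). Among sites of 11 to 12 bases the 3′ border was shared at 56.2% (54.9 to 57.5) and the 5′ border at 17.4% (16.5 to 18.4). At 19 to 20 bases these shares were 34.3% (32.1 to 36.5) and 12.1% (10.7 to 13.8), and at 25 to 28 bases 25.4% and 15.2%. Wide input-free sites shared the 3′ border at 18.6% and the 5′ border at 10.6%. The pattern was not limited to sites without an input peak, because narrow sites with one shared the 3′ border at 52.3% and the 5′ border at 19.9%. In the better-scoring 50% of each list the 3′ border was shared at 59.4% of narrow input-free sites, and in lists of equal length at 67.3%.

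**Figure D2:**
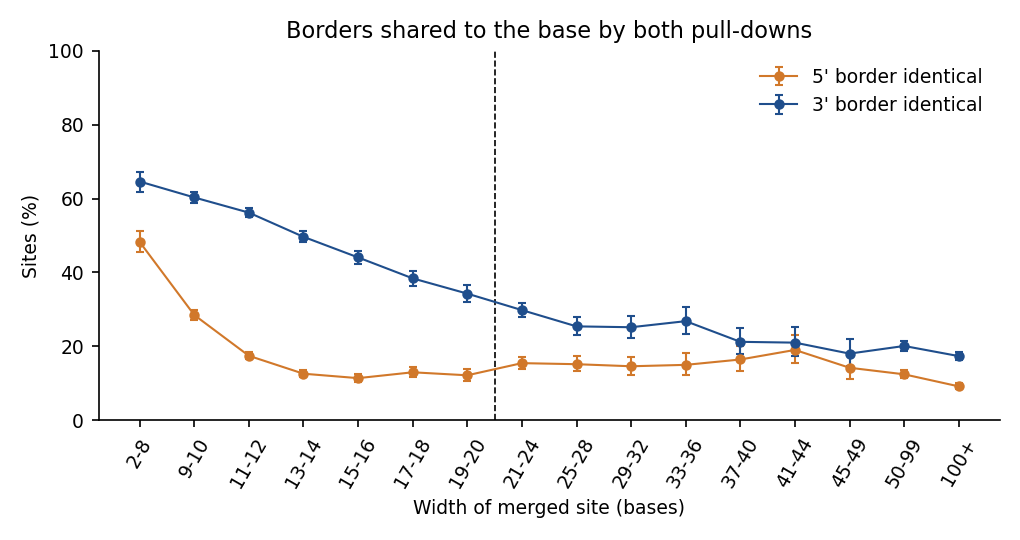
Percentage of input-free sites whose 5′ (orange) or 3′ (blue) border was the same base in both pull-downs, by merged width in bases, with 95% Wilson intervals; the dashed line is the limit of 20 bases. The 3′ share lies above the 5′ share at every width plotted and comes down from 64.6% at 2 to 8 bases to 34.3% at 19 to 20 bases, while the 5′ share is between 11.4% and 17.4% from 11 bases up to the limit.

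Narrow input-free sites scored near the middle of each pull-down list. The score is the authors' whole number for each peak, at least 10 in every list and of unstated meaning, so it was used only within a list. In pull-down replicate 1 the scores of these sites had a median of 17, a 10th percentile of 11 and a 90th percentile of 33, and in replicate 2 a median of 18 with percentiles of 11 and 34. The median site ranked at 56.6% of the list of replicate 1, counted from the best, and at 52.0% of that of replicate 2. Scores of 50 or more were reached at 459 and 581 sites and of 100 or more at 33 and 36. Narrow sites with an input peak scored higher, with medians of 36 and 38, and 31.7% and 33.6% of them reached 50. Middle input-free sites had medians of 17 and 19, and wide input-free sites of 15 and 16.

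Scores of the same site were related between the pull-downs, with a Spearman's rho of 0.58 over the 22213 sites. The score was higher in replicate 2 at 11815 sites, higher in replicate 1 at 8722 and equal at 1676. This is a description across sites, which are not replicates.

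The score of a narrow input-free peak in 1 pull-down did not simply raise its chance of being listed in the other. Of the narrow input-free peaks of replicate 1, 56.2% (55.8 to 56.7) were found in replicate 2. The share was 52.4% at scores of 10 to 14, 67.8% at 15 to 24 and 58.4% at 25 to 49, but 17.1% (15.8 to 18.4) of 3184 peaks at 50 or more. For replicate 2 the same scores gave 41.1%, 61.6%, 56.7% and 18.1% (16.9 to 19.3, of 3727 peaks). Narrow peaks of 50 or more that did have an input peak were found again at 98.4% and 97.8%. A score of 50 or more was thus held by 13.2% and 11.8% of the narrow input-free peaks that only 1 pull-down listed, against 2.11% and 2.64% of those that both listed. Middle and wide input-free peaks of 50 or more were also found again seldom, 321 of 1462 and 131 of 403 in replicate 1, and 351 of 1739 and 161 of 581 in replicate 2. Of the narrow peaks of replicate 1 with such scores that were found again, 6239 had an input peak and 543 had none.

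The 5 narrow input-free sites with the best mean rank all lay on the plus strand, and their borders differed by at most 4 bases between the pull-downs. The best-ranked, 18 bases wide at chr16:11816189-11816206, scored 319 in replicate 1 and 283 in replicate 2. The next, 20 bases wide at chr8:22595409-22595428, scored 296 and 242. Another of 20 bases, at chr12:98305600-98305619, scored 214 and 179. The others were at chr1:78437365-78437383, with 178 and 185, and at chr16:4691263-4691279, with 173 and 178. No gene was assigned to any of the 5. The mitochondrial genome held 1 site, on the plus strand from 2330 to 2344, scoring 37 and 22. By its midpoint it lay in RNR2, the gene of the large mitochondrial ribosomal RNA, on the assumption that the mitochondrial sequence is the same in both builds.

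Narrow input-free sites varied less in density between autosomes than wide peaks did. Counted per Mb up to the last listed peak of each chromosome, the 22 autosomes held between 3.97 (chromosome 22) and 7.95 (chromosome 11) sites, with a median of 7.46. This length was not corrected for unassembled or unmappable sequence. A low value therefore need not mean fewer sites per mappable base. The coefficient of variation over autosomes was 13.2%. It was 24.6% for wide input-free sites, 34.8% and 35.7% for the wide peaks of the pull-downs and 80.4% and 66.0% for those of the inputs. Chromosome 19, known as gene-rich, held 7.48 narrow input-free sites per Mb, next to the autosomal median. Its wide input-free sites numbered 3.11 per Mb against a median of 2.44. Before any filter, its wide peaks numbered 9.93 and 13.9 per Mb in the inputs against autosomal medians of 1.81 and 3.30. Narrow peaks before any filter were also densest on chromosome 19 in each of the 4 lists. They numbered 10.3 and 11.9 per Mb in the inputs, against medians of 6.22 and 8.14. In the pull-downs they numbered 25.6 and 27.7 per Mb, against medians of 21.98 and 23.8. Chromosome 13, known as gene-poor, held 6.54 narrow and 1.82 wide input-free sites per Mb. Before any filter, its input lists had 0.799 and 1.39 wide peaks per Mb and 4.49 and 6.31 narrow peaks per Mb. Chromosome X held 7.16 sites per Mb and chromosome Y 2.51. Narrow sites with an input peak varied as little, and their coefficient of variation was 11.7%.

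**Figure D3:**
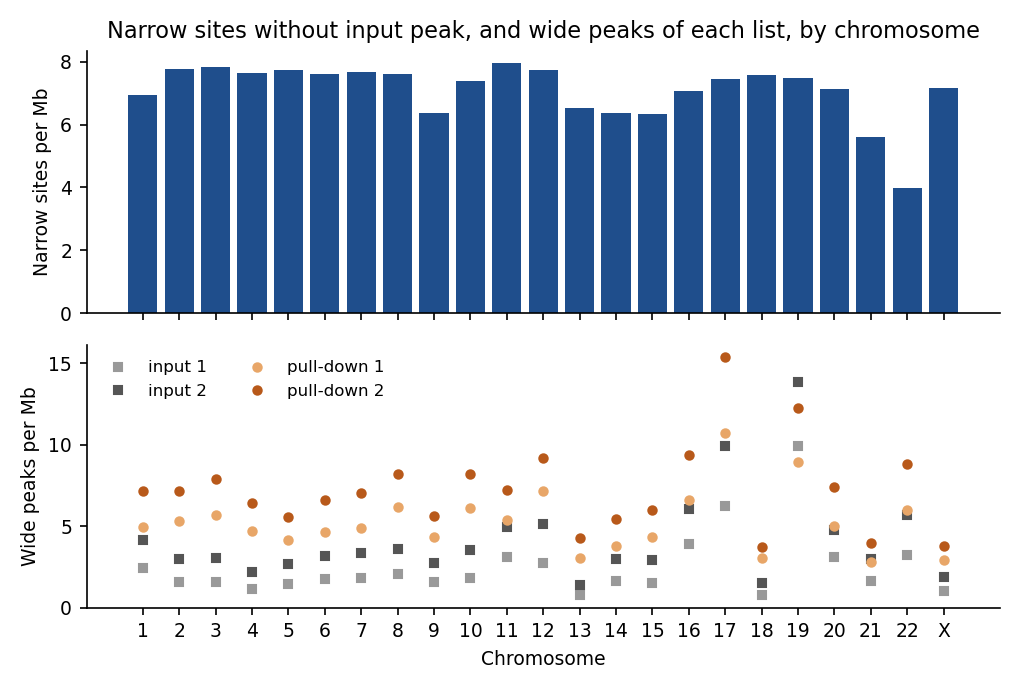
Narrow input-free sites per Mb (upper panel, bars) and wide peaks per Mb in each of the 4 lists (lower panel, points) on the autosomes and chromosome X, per Mb up to the last listed peak. The bars lie between 3.97 and 7.95, and the points reach 15.4 per Mb on chromosome 17 in pull-down replicate 2 and 13.9 on chromosome 19 in input replicate 2.

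In regions of 1 Mb the spread was also fairly even. Of 2909 nuclear regions that held a peak in any list, 0.997% had no narrow input-free site, the median was 8, and the 10th and 90th percentiles were 4 and 12. The variance over the mean was 1.60 for narrow input-free sites, 1.42 for narrow sites with an input peak and 4.58 for wide input-free sites. The region with the most sites, chr11:5000001-6000000, held 57. Across these regions, which differ in mappable length, Spearman's rho of the number of narrow input-free sites was 0.25 with narrow sites that had an input peak and 0.05 with all wide pull-down peaks, weak relations in sparse counts.

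Most narrow input-free sites stood far from the next one on their strand. The median gap was 161703 bases, with the middle 50% between 61451 and 348919 bases. The gap scales with the number of sites, and was 66431 bases without pull-down replicate 1, 74640 without replicate 2 and 1741995 in lists of equal length. Only 230 gaps (1.04%) were 1 kb or less, 1285 (5.80%) were 10 kb or less, and 27 were 100 bases or less. The median gap was 0.607 of the mean gap. It was 0.617 of the mean for narrow sites with an input peak and 0.387 for wide input-free sites, whose gaps were thus more unequal, and 1005 of the 7707 gaps between wide sites were 10 kb or less. The closest pair on 1 strand was 3 bases apart on the minus strand, at chr1:91852943-91852948 and chr1:91852952-91852954. On opposite strands the closest were chrX:54222865-54222873 (minus) and chrX:54222873-54222881 (plus), which shared 1 base. A further 6 neighbouring pairs on opposite strands had gaps of 0 to 100 bases. The most isolated site, chr9:66921302-66921306 (minus), had no other narrow input-free site on its strand within 4137697 bases. How much of that stretch can be mapped was not examined.

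Clusters were few. With the genome cut into windows of 100 kb on 1 strand, 17695 windows held a site, and 79.4% of these held 1. Windows of 5 or more sites numbered 34 and held 277 sites, 1.25% of all, and 6 windows held 10 or more. How many such windows an even spread of the sites would give was not computed.

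The strands were used about equally. The plus strand held 10990 sites, or 49.5% (48.8 to 50.1), and the plus share ran from 44.2% (chromosome 20) to 55.8% (chromosome 21) over autosomes. Neighbouring sites along a chromosome were on the same strand in 12048 of 22188 pairs, or 54.3% (53.6 to 55.0). In lists of equal length it was 49.8% (47.6 to 51.9). The share was 54.0% for narrow sites with an input peak, 56.9% for middle and 62.0% for wide input-free sites. It depended on distance. Narrow input-free neighbours within 1 kb were on the same strand at 75.4% (70.3 to 79.9), those 1 to 10 kb apart at 61.3% (58.9 to 63.6), and those over 100 kb apart at 51.4% (50.5 to 52.4). At 1 to 10 kb wide input-free neighbours were on the same strand at 88.9% (86.8 to 90.7) and middle ones at 88.1% (85.0 to 90.7), while narrow sites with an input peak were at 62.5% (59.1 to 65.7). At 1 to 10 kb, middle and wide sites with an input peak were at 74.5% (68.7 to 79.6) and 79.3% (74.3 to 83.5). Narrow sites thus changed strand more often than middle or wide sites at this distance, but not over 100 kb, where the 6 classes lay between 49.4% and 51.9%. None of these differences was tested.

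**Figure D4:**
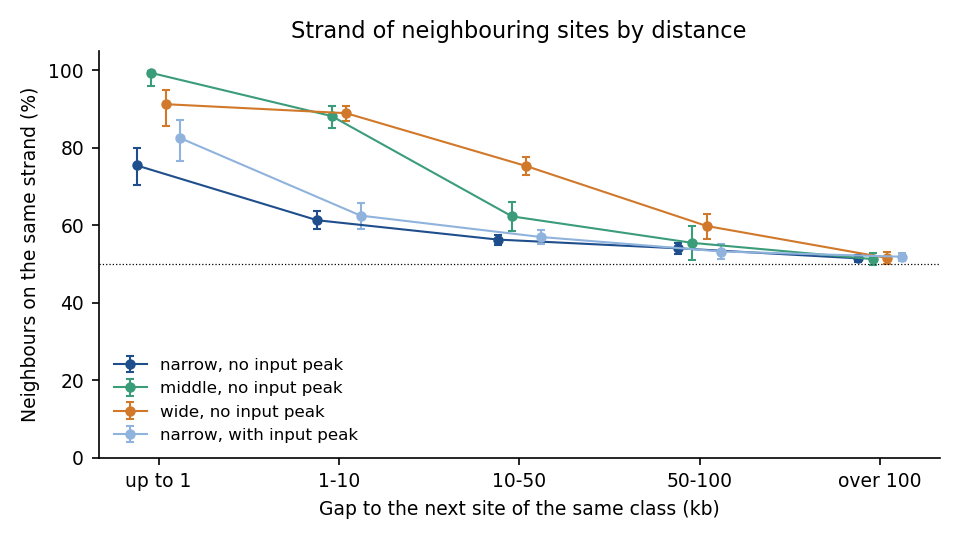
Percentage of neighbouring sites of 1 class that lie on the same strand, by the gap between them in kb, with 95% Wilson intervals; the dotted line marks 50%. At 1 to 10 kb the narrow sites are at 61.3% (no input peak) and 62.5% (with an input peak), below the middle (88.1%) and wide (88.9%) sites, and over 100 kb all 4 classes lie between 51% and 52%.

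The sites formed 10165 runs of consecutive sites on 1 strand, with a mean of 2.19 sites, and 4871 runs (47.9%) held 1 site. Runs of 10 or more numbered 59 and held 742 sites. The 7755 wide input-free sites formed 75 such runs with 1291 sites.

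The 5 longest runs were of different make. The longest, chr11:5349870-5574346 (minus), held 48 sites over 224 kb with a median gap of 1138 bases. Within its span the own strand carried 293 peaks of pull-down replicate 1 and 349 of replicate 2, with 36 and 75 of the inputs. Per 10000 listed peaks this was 30.5 and 31.4 for the pull-downs and 12.3 and 17.7 for the inputs. The other strand carried 1 peak, of pull-down replicate 1. Wide peaks ran along the same strand there, 33 and 23 from the pull-downs and 19 and 32 from the inputs. These wide-peak counts are not scaled, and the input lists were much shorter, so they show no excess of wide peaks in the pull-downs. Next came a run of 38 sites at chr11:64989322-66881298 (plus). The run covered 1892 kb, but its median gap was 289 bases and its median width 6 bases. Its strand carried 17.9 and 19.2 peaks per 10000 listed for the pull-downs and, higher, 29.3 and 28.2 for the inputs. The third, chr9:21506168-21586604 (minus), held 23 sites over 80.4 kb, with 15 wide peaks in each pull-down on its strand and 0 peaks of any library on the other strand. These 3 runs were compact or held a compact core.

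The other 2 runs were sparse. A run of 18 sites at chr7:69065554-70397821 (minus) covered 1332 kb with a median gap of 64930 bases. Its strand carried 44 and 39 peaks of the pull-downs, of which 39 and 35 were narrow and 0 were wide. A run of 15 sites at chr2:33586489-34833976 (minus) covered 1247 kb with a median gap of 59708 bases, and had 0 wide peaks on its strand in any library. In all 4 runs held 15 sites, and this one is named by its position. Median scores were 13 in replicate 1 for each of the first 3 runs, 15.5 for the run on chromosome 7 and 18 for that on chromosome 2.

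Of the 5 windows of 100 kb with the most sites, 4 lay in the first 3 of these runs. There were 24 sites at chr11:5500001-5600000 (minus), 22 at chr11:5400001-5500000 (minus), 24 at chr11:65200001-65300000 (plus), 23 at chr9:21500001-21600000 (minus) and 15 at chr12:66200001-66300000 (plus). The window at chr11:65200001-65300000 had the narrowest sites of the 5, with a median width of 4.5 bases against 12 to 18 in the others. Its own strand carried 99 and 128 peaks of the pull-downs and 47 and 61 of the inputs, so sites free of input peaks stood among many input peaks. Per 10000 listed peaks this was 10.3 and 11.5 for the pull-downs and, higher, 15.99 and 14.4 for the inputs. The window on chromosome 9 carried 13.9 and 14.7 per 10000 for the pull-downs and 4.76 and 7.10 for the inputs.

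Input peaks close to the narrow input-free sites were counted on each strand. Besides the overlap that the rule removed, 64 sites (0.288%) had an input peak within 100 bases on the same strand and 539 (2.43%) within 1 kb. Within 1 kb on the opposite strand, 377 sites (1.70%) had one. Within 10 kb, 3551 sites had an input peak on the same strand and 2989 on the opposite strand. How often a position taken at random has an input peak this near was not computed, so no avoidance can be read from these counts. On the opposite strand, which the rule did not use, 6 sites overlapped an input peak, 20 a peak of pull-down replicate 1 and 14 a peak of replicate 2.

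Wide peaks in the neighbourhood lay more often on the strand opposite to the narrow input-free sites than on their own. Wide pull-down peaks at a gap of 1 to 10 kb were looked up on each strand, a distance at which neither the merging nor the overlap with inputs acts. The own strand alone had one at 1210 sites, the opposite strand alone at 1910, and both strands at 166. The opposite strand thus held the peak at 61.2% (59.5 to 62.9) of the sites with a wide peak on 1 strand. With the wide peaks of 1 library at a time, the share was 58.4% (56.2 to 60.6) and 62.3% (60.3 to 64.2) for the pull-downs, and 54.0% (50.6 to 57.4) and 59.4% (56.7 to 62.1) for the inputs. It was above 50% in all 4 libraries. It was near 50% for the narrow input-free peaks of 1 pull-down alone, set against the wide peaks of that pull-down only. Without pull-down replicate 1 the peaks of replicate 2 gave 48.8% (47.6 to 50.0). Without replicate 2 those of replicate 1 gave 50.1% (48.7 to 51.6). Shares of such peaks against the wide peaks of both pull-downs are given below, split by whether the other pull-down listed them. Over all narrow peaks of a list, with or without an input peak, it was 57.3% and 56.4% for the inputs and 54.6% and 51.1% for the pull-downs, each against the wide peaks of both pull-downs. Wide input-free sites went the other way, with 13.6% (12.5 to 14.8) having their wide pull-down neighbours on the opposite strand, and middle input-free sites were at 24.5% (22.5 to 26.5). Narrow sites with an input peak had 63.8% (61.7 to 65.8), so the pattern was shared by narrow sites whether or not an input listed them.

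The share on the opposite strand changed with width across the limit of 20 bases. It was 57.8% (50.8 to 64.4) at 2 to 8 bases, highest at 9 to 10 with 66.8% (62.6 to 70.8), then 55.2% (49.7 to 60.5) at 19 to 20, 42.0% (37.1 to 46.9) at 21 to 24 and 9.09% (5.96 to 13.6) at 45 to 49. With wide input peaks the same widths gave 49.4%, 63.8%, 52.8%, 37.6% and 8.70%. Width by width it was 60.4% (52.8 to 67.4) at 19 bases, 49.3% (41.4 to 57.3) at 20, 51.5% (41.8 to 61.1) at 21 and 36.4% (27.9 to 45.9) at 22, with neighbouring intervals that overlap, so a step at the limit could not be placed. By mean score, it was 56.6% (53.6 to 59.5) at 10 to under 15, 62.9% (60.3 to 65.4) at 15 to under 25 and 65.1% (61.4 to 68.7) at 25 to under 50. With wide input peaks these scores gave 50.2% (46.2 to 54.2), 64.6% (60.6 to 68.4) and 69.2% (63.4 to 74.5), so the lowest-scoring sites showed no preference there. With distance it came down from 71.2% (66.9 to 75.2) within 1 kb to 54.7% (53.6 to 55.8) at 50 to 100 kb.

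**Figure D5:**
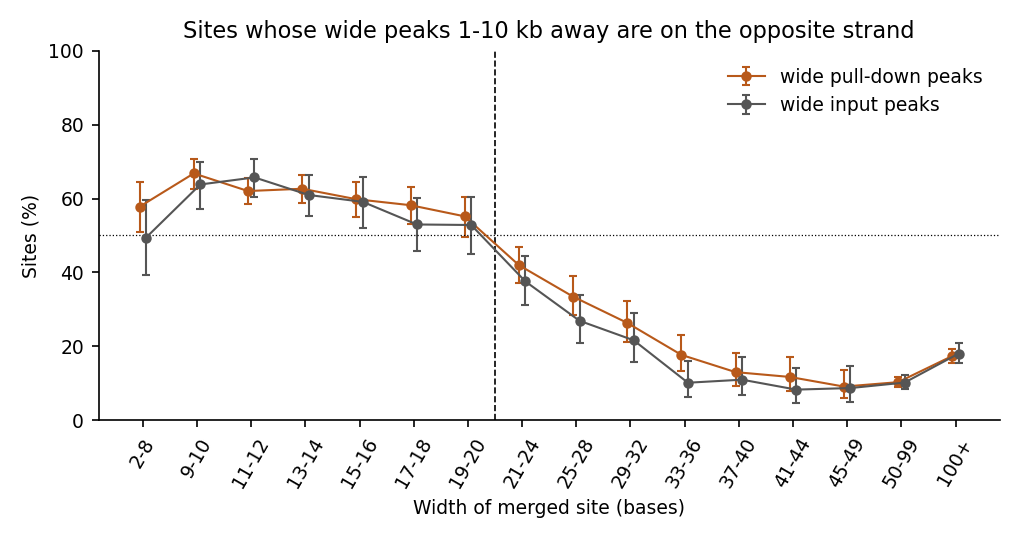
Percentage of input-free sites whose wide peaks at a gap of 1 to 10 kb lay on the opposite strand, among sites with such peaks on 1 strand only, by merged width in bases, with 95% Wilson intervals. The share is 57.8% at 2 to 8 bases, 66.8% at 9 to 10 and 9.09% at 45 to 49 bases for wide pull-down peaks (brown), and wide input peaks (grey) follow the same course; the dashed line is the limit of 20 bases and the dotted line 50%.

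The share differed between peaks that both pull-downs listed and peaks that 1 listed. Split by whether the other pull-down listed them and set against the wide peaks of both pull-downs, the narrow input-free peaks of replicate 1 gave 56.7% (55.2 to 58.3) where they were found again and 48.2% (46.6 to 49.9) where they were not. For replicate 2 the shares were 56.3% (54.8 to 57.9) and 42.3% (40.8 to 43.7). In lists of equal length the share was 54.7% (44.2 to 64.7). Dense windows went against the rest. Among the 277 sites in windows of 5 or more, 13 had wide peaks on the opposite strand only and 152 on their own strand only, a share of 7.88%, and outside these windows the share was 64.2% (62.5 to 65.9).

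Narrow peaks near the narrow input-free sites were, in contrast, mostly on the same strand. At 1 to 10 kb the opposite strand alone held narrow pull-down peaks at 39.4% (38.3 to 40.6) for replicate 1 and 38.9% (37.8 to 40.0) for replicate 2, and narrow input peaks at 40.2% (38.4 to 42.1) and 39.4% (37.8 to 41.1). In each of the 4 lists, then, narrow neighbours lay mostly on the strand of the site and wide neighbours mostly on the other. Which of the strands was transcribed at these places was not tested.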

How the data were processed

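CLIP-seq peaks of 2 input and 2 pull-down libraries were used. The authors deposited 1 peak list per sample, with positions in bases, a strand and a score, a whole number of at least 10 whose meaning is not given. Per the submitters' processing notes, STAR, featureCounts and GRCh38 were used, with no versions. The caller of the peaks and its threshold were not given in the sources used here, and the chromosome lengths behind the choice of GRCh37 came from general knowledge. Nothing in the labels says that replicates came from separate cultures. Lists were read and intersected in Python 3.11.15 with pandas 2.3.3 and numpy 2.4.6, and Wilson intervals came from scipy 1.17.1. Interval functions were tested on simulated lists. No result comes from a test, because the sites were chosen on the pull-down to input contrast and sites are not replicates. Named sites were the 5 with the best mean rank, the 5 longest runs, the 5 fullest windows, any mitochondrial site, the closest pairs and the most isolated site, with ties broken by position. The members and lists were chosen with earlier results of these data known, and the comparisons of 3′ borders and of wide peaks by strand were added after the data had been examined. Sequence and gene context were planned but not analysed here, since no genome of the build of the files was used. Alternatives were other overlaps, widths, score limits, input rules and left-out libraries.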

Additional observations from a re-analysis of the deposited data

How the results depend on the processing

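No paired analysis was possible because no result came from a test to which the replicate number could be added. As a description, setting each pull-down against the input of its own number, chosen after seeing the data, gave 22215 sites and moved none of the 6 results. Limits were the unknown read depth, the unstated meaning of score and strand, and 2 libraries per group. Values were taken as moved when they left the 95% interval of the main value, or for the number of sites when it changed by over 1.5 times. Where each peak had to be covered to 50% or more by the other, the median gap was 170180 bases, identical borders made up 9.69% and identical 3′ borders 52.2%. In the better-scoring 50% of each list there were 11196 sites, with 52.4% of neighbours on the same strand, a median gap of 332217 bases, 10.7% identical borders and 59.4% identical 3′ borders. Lists of equal length, 29386 peaks each, gave 2122 sites, 49.8% of neighbours on the same strand, a median gap of 1741995 bases, 12.3% identical borders, 67.3% identical 3′ borders and a share with wide peaks on the opposite strand of 54.7%. Both cuts keep fewer peaks, which lengthens gaps by construction. A limit of 15 bases gave a median gap of 216095 bases, 10.9% identical borders and 54.8% identical 3′ borders, and a limit of 25 bases gave 146726 bases, 8.77% and 48.8%, with an opposite-strand share of 58.6%. That share was 64.6% for wide peaks of 100 bases or more, 57.0% for wide peaks 10 to 50 kb away and 64.2% without windows of 5 or more sites, settings chosen after seeing the data. Removing sites with an input peak on either strand, or within 100 bases, moved none of these 6 results. Leaving out 1 library at a time gave 23512 to 51398 sites, 54.6% to 55.7% of neighbours on the same strand, median gaps of 66431 to 152308 bases, identical borders at 9.31% to 9.38%, identical 3′ borders at 51.1% to 51.5% and opposite-strand shares of 48.8% to 61.4%. Without a pull-down the sites are the peaks of the other alone, which needs no second listing and raises their number by construction, and borders cannot be compared. The wide peaks of the left-out pull-down are then missing too, so the opposite-strand share is not on the same wide peaks as the main value.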
